A study of Mus musculus with 48 samples.

Results

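The DNAJ family of cochaperones was examined in bulk RNA sequencing of the mouse substantia nigra (SN). Members were the genes of the batch-corrected tables whose symbol starts with *Dnaja*, *Dnajb* or *Dnajc* and a number, without *Dnajb1*. There were 43 members among 19601 protein-coding genes, 4 of class A, 12 of class B and 27 of class C. The study injected mouse α-synuclein, either as sonicated preformed fibrils (PFF) or as monomer, into the right striatum of male C57BL/6J mice aged 121 days, and kept them at 21% or 11% O2. The SN was taken 90 to 98 days later, from 12 mice in each of 4 groups. Values here rest on the 42 mice that the authors kept, namely 11 monomer and 12 PFF mice breathing 21% O2, and 9 monomer and 10 PFF mice breathing 11% O2. The labels name no transgene or deletion, and every mouse received an α-synuclein injection, so the monomer mice breathing 21% O2 served as the reference. The study's methods start 11% O2 soon after the injection and follow mice for 12 weeks. The text that accompanies the deposited files instead keeps every mouse at 21% O2 for the first part of that time. How long these mice breathed 11% O2 is therefore not certain.

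DNAJ proteins, also called J proteins or HSP40, carry a J domain that binds HSP70 and stimulates its ATPase, which locks HSP70 onto a protein client. Class A proteins keep the whole layout of bacterial DnaJ, class B proteins lack its zinc-binding region, and class C proteins share the J domain alone and mostly serve a single organelle or task. Some DNAJ proteins work with HSP70 and HSP110 in taking apart aggregates, α-synuclein fibrils among them. Which of the members here do so was not examined. Inherited defects in some class C members cause parkinsonism.

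Each of the 42 libraries held between 12902996 and 17120921 counts on genes before batch correction, and no library was identical to another. Harvest dates formed 3 batches. All 4 groups were present in batch 1, while batch 2 held no monomer mice breathing 11% O2 and batch 3 held no monomer mice breathing 21% O2. The 7 dopaminergic neuron markers were detected in every group, but their summed level ranged from 1091 to 5300 TPM across mice (a transcript level scaled for length and library size). The whole SN was dissected. In such bulk tissue, fewer cells of a type and less RNA per cell cannot be told apart.

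Levels of the members, which are compared between genes as TPM because TPM is scaled to transcript length, spanned more than 3 orders of magnitude. Of the 43 members, 39 had a mean of at least 1 TPM and 8 had a mean of at least 100 TPM. These 8 (*Dnaja2*, *Dnajc5*, *Dnajc27*, *Dnajc8*, *Dnajb2*, *Dnajc6*, *Dnaja1* and *Dnajc7*) made up 54.9% of the summed TPM of the family. Class C held 61.3% of that sum, class B 20.6% and class A 18.1%. In class A the highest mean was that of *Dnaja2*, a constitutive cytosolic cochaperone of HSC70, at 267 TPM ± 15.2 (SD, n = 42). *Dnaja4*, a cytosolic member induced by heat, was the lowest of class A at 34.0 TPM ± 5.65 (SD, n = 42). In class B the highest was *Dnajb2*, a neuronal cochaperone that hands clients to the proteasome, at 200.6 TPM ± 17.5 (SD, n = 42). In class C it was *Dnajc5*, which encodes the synaptic vesicle protein CSPα, at 221 TPM ± 17.5 (SD, n = 42).

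At the other end, *Dnajb7*, *Dnajb8*, *Dnajc22* and *Dnajc5b* had means under 1 TPM and did not pass the filter on low counts, so 39 members were tested. *Dnajb8*, the lowest of class B and known from testis, had a mean of 0.566 TPM and a median of 3 counts per mouse. *Dnajc5b*, the lowest of class C and a testis relative of *Dnajc5*, had a mean of 0.164 TPM and was counted in 19 of 42 mice. *Dnajb13*, an axonemal gene of ciliated cells, was tested at a median of 14 counts per mouse and 1.46 TPM. The spread between mice of a group was small for most tested members, with a median coefficient of variation of 7.45%, from 5.19% for *Dnajb6* to 36.3% for *Dnajb13*. Exons of 18 members overlap those of another annotated gene, and the counting used no strand option, so reads from the overlap cannot be assigned to either gene.

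**Figure D1:**
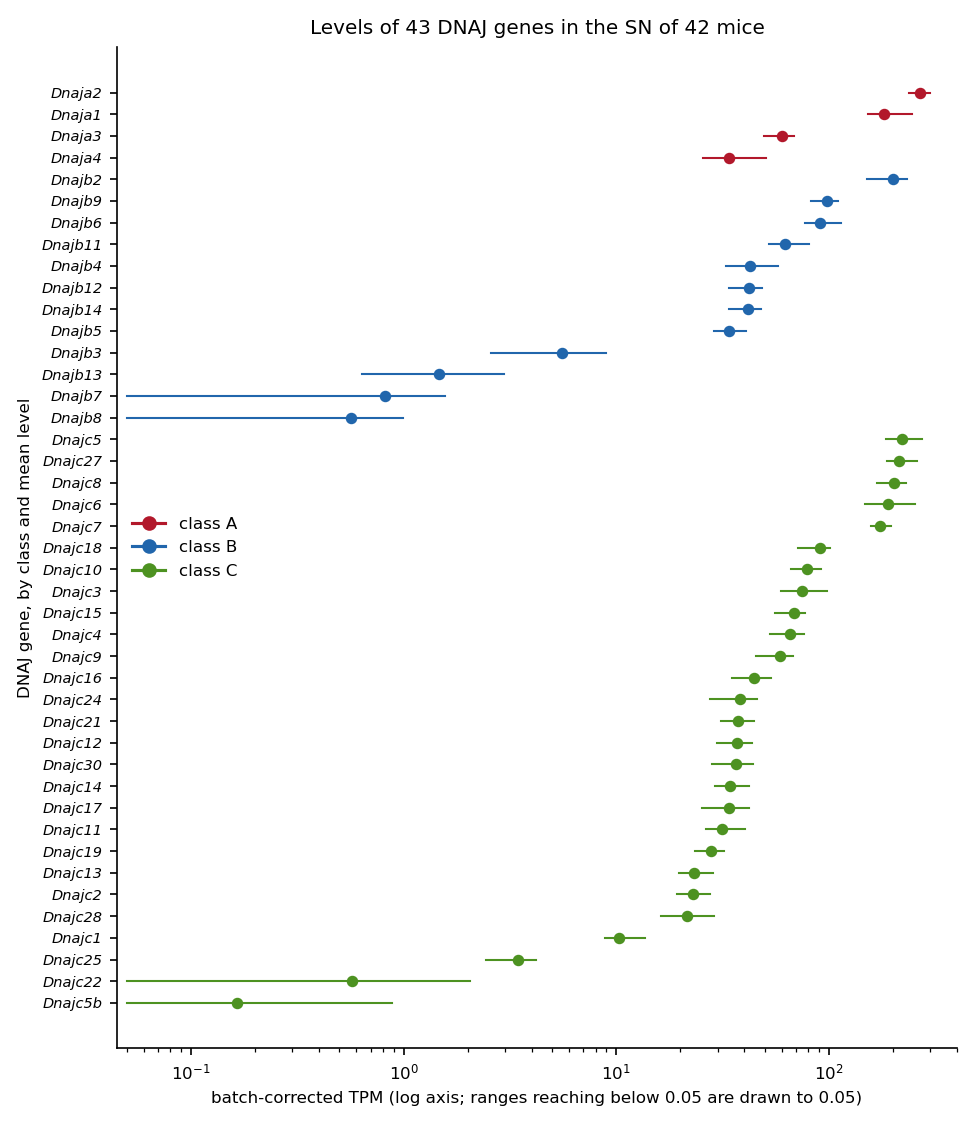
Levels of the 43 DNAJ genes in 42 mice, by class and in descending order of the mean. Points are mean batch-corrected TPM and lines reach from the lowest to the highest mouse, on a log axis, where ranges reaching below 0.05 TPM are drawn to 0.05. The 8 genes above 100 TPM are spread over all 3 classes, and 4 genes lie under 1 TPM.

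Fold changes were tested with the quasi-likelihood test of edgeR on the batch-corrected counts, with p-values adjusted by Benjamini–Hochberg. Genes counted as called had an adjusted p below 0.05 and moved by more than 0.25 on the log2 scale, up or down. All adjusted p-values are over the 14839 genes tested. Across these comparisons over all batches few members were called. Every member called there belonged to the list of heat-inducible DNAJ genes (*Dnaja1*, *Dnaja4*, *Dnajb4* and *Dnajb5*). That list was chosen with earlier results of these data known, so this overlap is not independent evidence. Within a single batch, members outside the list were called too (*Dnajb11*, *Dnajc3* and *Dnajc28*). The reference group of monomer mice breathing 21% O2 enters both the comparison with PFF mice and the comparison with monomer mice breathing 11% O2, so those results are not independent of each other.

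Promoters of the 3 genes called over all batches are shown here because these genes moved together. RefSeq gives 3 windows for *Dnaja1* and 2 each for *Dnaja4* and *Dnajb4*, and the 1 window of each gene that held a match is printed. Their other windows held none. They come from RefSeq on GRCm38.p6, each from 250 bases before to 50 bases after an annotated start, in lower case with matches to a heat shock element in capitals. The letters searched were GAANNTTCNNGAA, the 3-unit binding motif of heat shock factors, on both strands with at most 1 mismatch at the fixed letters.

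*Dnaja4* (chr9:54699309-54699608, plus strand): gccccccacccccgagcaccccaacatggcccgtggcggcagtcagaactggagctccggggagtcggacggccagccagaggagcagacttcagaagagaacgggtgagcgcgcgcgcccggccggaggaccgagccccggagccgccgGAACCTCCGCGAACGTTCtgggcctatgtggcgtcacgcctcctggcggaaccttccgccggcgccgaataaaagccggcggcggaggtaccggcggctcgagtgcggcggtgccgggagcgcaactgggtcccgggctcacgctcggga

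*Dnaja1* (chr4:40722218-40722517, plus strand): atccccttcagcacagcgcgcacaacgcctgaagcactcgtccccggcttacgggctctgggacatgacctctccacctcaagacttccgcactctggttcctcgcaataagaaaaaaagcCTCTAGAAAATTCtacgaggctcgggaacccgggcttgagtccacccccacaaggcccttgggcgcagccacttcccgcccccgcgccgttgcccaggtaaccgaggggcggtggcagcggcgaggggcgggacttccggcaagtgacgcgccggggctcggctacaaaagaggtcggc

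*Dnajb4* (chr3:152193796-152194095, minus strand): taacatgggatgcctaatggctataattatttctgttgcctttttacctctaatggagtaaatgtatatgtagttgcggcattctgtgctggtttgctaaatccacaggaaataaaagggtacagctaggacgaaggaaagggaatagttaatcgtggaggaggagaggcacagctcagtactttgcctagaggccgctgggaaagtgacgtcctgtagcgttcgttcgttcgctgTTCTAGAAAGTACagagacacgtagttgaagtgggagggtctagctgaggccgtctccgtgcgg

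In the *Dnaja4* window the capitals hold 2 overlapping matches, one on each strand, beginning 100 and 95 bases before the start. The match begins 129 bases before the start in *Dnaja1* and 14 bases before it in *Dnajb4*, on the minus strand of the printed sequence in both. RefSeq windows were found for 35 of the 43 members and for *Dnajb1*. Of these 36 genes, 6 had such a match in at least 1 window, and so did 8.15% of all 27025 genes in the table. The other 3 were *Dnajb6*, *Dnajc8* and *Dnajc27*, none of which was called in a comparison. With no mismatch allowed, 0.662% of all genes and, of the DNAJ genes, *Dnajb6* alone had a match. The windows of *Dnajb5* and *Dnajb1* held none with at most 1 mismatch, which says only that these letters are not in those windows. A match likewise says only that the letters are present, and binding was not tested.

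In mice breathing 21% O2, *Dnaja4* was lower in PFF than in monomer mice. Its level had a minimum of 33.2, a median of 42.1 and a maximum of 50.5 TPM in the 11 monomer mice. In the 12 PFF mice it ran from 27.6 through a median of 33.1 to 38.8 TPM. The groups overlapped, with 6 of 12 PFF mice below the lowest monomer mouse and all 12 below the monomer median. The log2 fold change was -0.31 ± 0.05 (SE), with an edgeR adjusted p of 0.000106. *Dnaja4* was the single member called of 39 tested (2.56%), against 3.7% of all genes in either direction and 1.41% of all genes in the lower direction.

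*Dnaja1* and *Dnajb4* were also lower in these PFF mice, by less than the fold threshold. *Dnaja1*, a cytosolic HSC70 cochaperone also known as HDJ2, had a mean of 205.3 TPM ± 20.9 (SD, n = 11) in monomer and 180 TPM ± 12.0 (SD, n = 12) in PFF mice. No PFF mouse lay below the lowest monomer mouse, and all 12 lay below the monomer median. The log2 fold change of *Dnaja1* was -0.17 ± 0.04 (SE), with an edgeR adjusted p of 0.0104. *Dnajb4*, a cytosolic and muscle-enriched relative of *Dnajb1*, had a mean of 48.7 TPM ± 4.86 (SD, n = 11) in monomer and 42.2 TPM ± 3.53 (SD, n = 12) in PFF mice. For *Dnajb4*, 7 of 12 PFF mice lay below the lowest monomer mouse. Its log2 fold change was -0.19 ± 0.05 (SE), with an edgeR adjusted p of 0.00799. *Dnajb11*, a cochaperone of BiP in the endoplasmic reticulum (ER), was the fourth member with an adjusted p under 0.05, at a log2 fold change of -0.16 ± 0.05 (SE) and an edgeR adjusted p of 0.0453. By the adjusted p alone, 4 of 39 members and 7.59% of all genes passed. *Dnajb5*, the remaining member of the heat-inducible list, had 35.6 TPM ± 3.15 (SD, n = 11) in monomer and 33.5 TPM ± 2.17 (SD, n = 12) in PFF mice, and a log2 fold change of -0.07 with a 95% interval from -0.16 to 0.02.

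Within batches, on the counts before correction, *Dnaja4* differed between PFF and monomer mice by -0.34 ± 0.09 (SE) on the log2 scale in batch 1, with 4 mice a group, and by -0.30 ± 0.07 (SE) in batch 2, with 7 monomer and 4 PFF mice. In batch 1 the edgeR adjusted p of *Dnaja4* was 0.227, where 9 genes were called in all (0.0609%, and 0.0542% called lower) and no member was. In batch 2 it was 0.0182. *Dnaja1* differed by -0.08 ± 0.06 (SE) in batch 1 and by -0.26 ± 0.04 (SE) in batch 2, and *Dnajb4* by -0.10 ± 0.06 (SE) and -0.25 ± 0.05 (SE). *Dnajb11* differed by -0.02 ± 0.07 (SE) in batch 1 and by -0.31 ± 0.08 (SE) in batch 2. Batch 2 alone called 6 members, namely these 4, *Dnajc3* and *Dnajc28*, all lower, against 3.91% of all genes called there in either direction and 1.81% called lower. The size of the difference in *Dnaja4* was close in both batches, whereas those of the other 3 lay mostly in batch 2. *Dnajc3* and *Dnajc28* were above 0 in batch 1, at 0.20 ± 0.08 (SE) and 0.19 ± 0.09 (SE), and below 0 in batch 2, at -0.30 ± 0.07 (SE) and -0.32 ± 0.06 (SE). Whether the batches differ was not tested.

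Between 11% and 21% O2 in monomer mice, *Dnaja4*, *Dnajb4* and *Dnaja1* fell. *Dnaja4* ran from 25.5 through a median of 30.4 to 32.1 TPM in the 9 monomer mice breathing 11% O2, and so did not overlap with the 33.2 to 50.5 TPM of the monomer mice breathing 21% O2. Its log2 fold change was -0.46 ± 0.06 (SE), with an edgeR adjusted p of 1.52e-07. It ranked 15 of all 14839 genes by p. How many of all genes show no overlap between these groups was not counted. *Dnajb4* ran from 33.0 through a median of 39.8 to 42.9 TPM, against 41.7 through 48.5 to 57.7 TPM at 21% O2, with 7 of 9 mice below the lowest of the other group. The log2 fold change of *Dnajb4* was -0.32 ± 0.05 (SE), with an edgeR adjusted p of 2.23e-05. *Dnaja1* ran from 152 through a median of 168 to 180 TPM, against 168 through 209 to 247 TPM at 21% O2. Of the 9 mice, 4 lay below the lowest of the other group and all 9 below its median. The log2 fold change of *Dnaja1* was -0.29 ± 0.05 (SE), with an edgeR adjusted p of 3.59e-05.

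These were 3 of 39 members tested (7.69%), all lower, against 7.23% of all genes called in either direction and 2.55% called lower. *Dnajc28*, a mitochondrial member whose task is little known, had a log2 fold change of -0.23 ± 0.07 (SE) and an edgeR adjusted p of 0.0210, short of the fold threshold. By the adjusted p alone, 4 of 39 members and 13.2% of all genes passed. *Dnajb5* had 33.0 TPM ± 3.13 (SD, n = 9) at 11% O2 and a log2 fold change of -0.11, with a 95% interval from -0.20 to -0.01 and an edgeR adjusted p of 0.149. Batch 1 is the only batch with both of these groups. There, on uncorrected counts, the log2 fold change was -0.44 ± 0.09 (SE) for *Dnaja4*, -0.27 ± 0.06 (SE) for *Dnaja1* and -0.34 ± 0.06 (SE) for *Dnajb4*. All 3 were called in batch 1 alone, with edgeR adjusted p-values of 0.0199, 0.0278 and 0.0146, against 2.01% of all genes called there in either direction and 1.07% called lower.

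**Figure D2:**
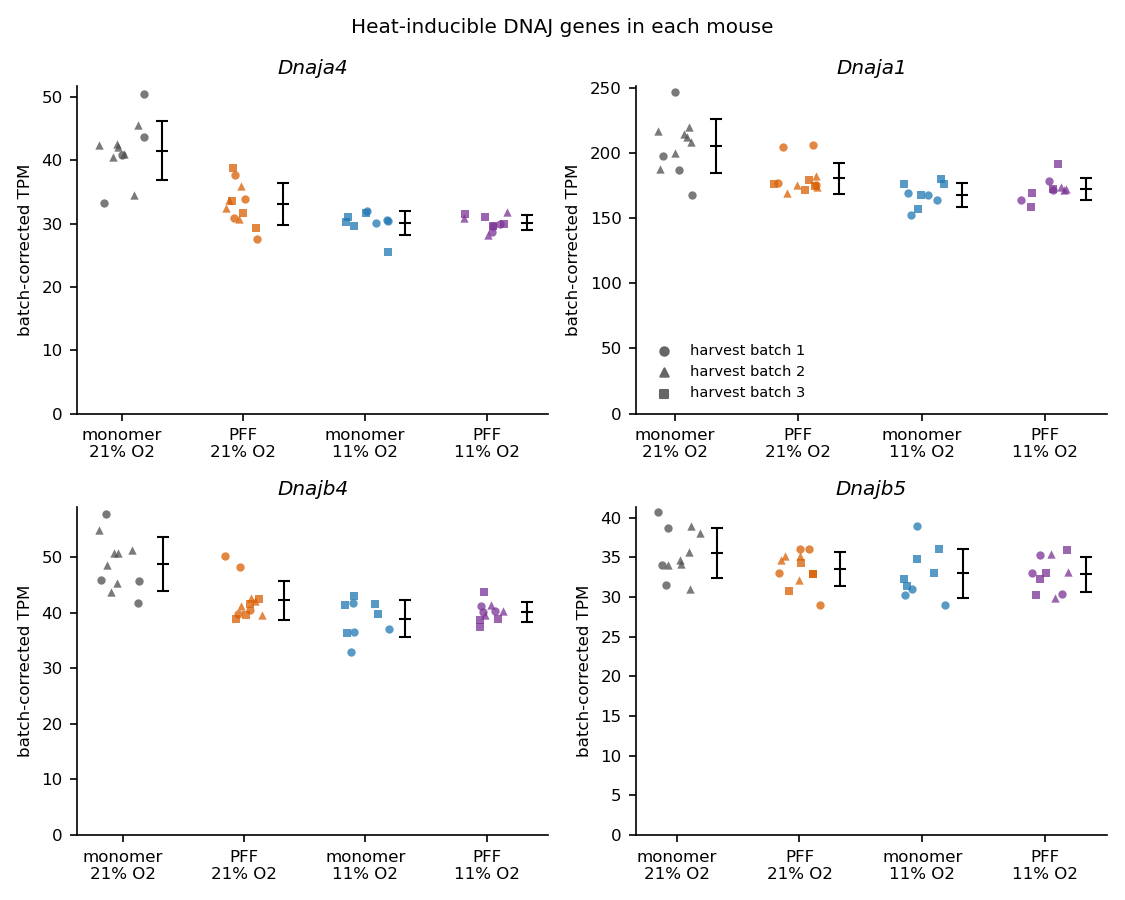
Batch-corrected TPM of the 4 heat-inducible DNAJ genes in each of 42 mice, by group, with the harvest batch as the symbol and the mean ± SD beside each group. Monomer mice breathing 21% O2 have the highest mean for all 4 genes. Between these mice and the monomer mice breathing 11% O2, *Dnaja1*, *Dnajb4* and *Dnajb5* overlap and *Dnaja4* does not.

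**Figure D3:**
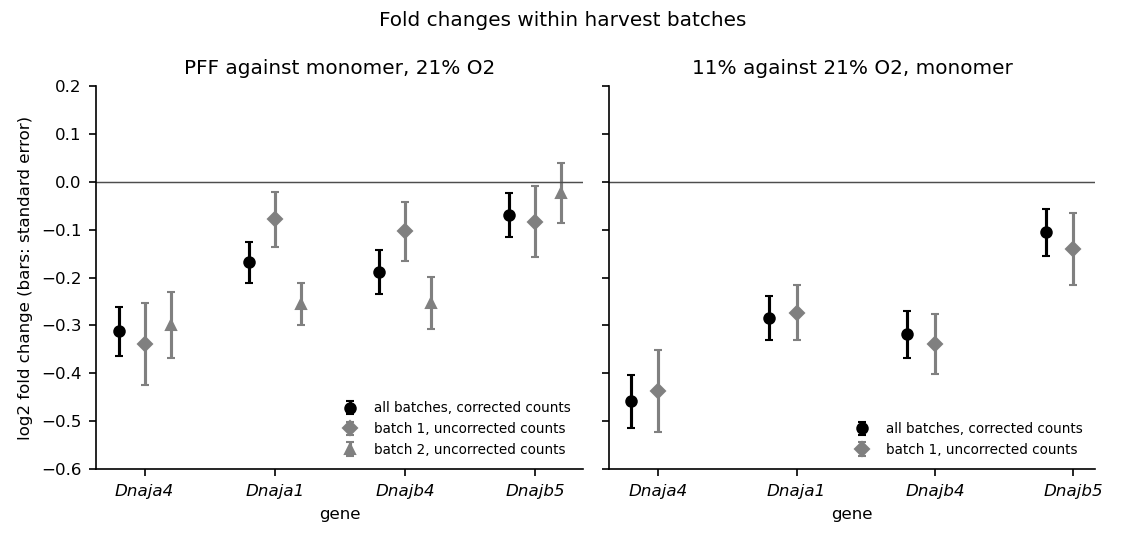
Log2 fold changes of the 4 heat-inducible DNAJ genes over all batches (black, batch-corrected counts) and within single batches (grey, uncorrected counts), with standard errors. *Dnaja4* is near -0.3 in both batches for PFF against monomer at 21% O2, and *Dnaja1* and *Dnajb4* are nearer 0 in batch 1 than in batch 2.

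*Dnajb1*, the main heat-inducible DNAJ gene and no member here, moved the same way and further. Its level had a median of 146 TPM, from 118 to 190.5 TPM, in monomer mice breathing 21% O2. In PFF mice breathing 21% O2 the median of *Dnajb1* was 84.7 TPM, from 73.3 to 111 TPM, and in monomer mice breathing 11% O2 it was 81.3 TPM, from 70.5 to 92.3 TPM. Neither of these 2 groups overlapped with the reference group. The share of all genes without such overlap was not counted. The log2 fold changes of *Dnajb1* were -0.71 ± 0.07 (SE) and -0.87 ± 0.08 (SE).

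Between PFF and monomer mice breathing 11% O2, no member was called. At an unadjusted p under 0.05, edgeR found 0 of 39 members and 581 of all genes, and 0% of all genes were called. DESeq2 and limma called no member either. The smallest p was that of *Dnajc14*, an ER member also known for binding the dopamine D1 receptor, with a log2 fold change of -0.10 and a 95% interval from -0.20 to 0.00. *Dnajc11*, of the mitochondrial contact site complex, was at -0.07, and *Dnajb12*, an ER membrane member of protein quality control, was also at -0.07, each with an edgeR adjusted p of 1.00. *Dnaja4* had a mean of 30.1 TPM in both groups, with an SD of 1.89 TPM in the 9 monomer and 1.20 TPM in the 10 PFF mice. *Dnaja1* had 168 TPM ± 9.16 (SD, n = 9) and 172.3 TPM ± 8.60 (SD, n = 10), and *Dnajb4* 38.9 TPM ± 3.34 (SD, n = 9) and 40.1 TPM ± 1.74 (SD, n = 10).

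Between 11% and 21% O2 in PFF mice, no member was called either, against 0.58% of all genes. At an unadjusted p under 0.05, edgeR found 2 of 39 members, *Dnajc4* and *Dnaja4*, against 10.7% of all genes. DESeq2 and limma called no member. *Dnajc4*, a mitochondrial member, was at a log2 fold change of -0.15 ± 0.05 (SE) with an edgeR adjusted p of 0.173. *Dnaja4* was at -0.13 ± 0.05 (SE) with an edgeR adjusted p of 0.342, and all 10 PFF mice breathing 11% O2 lay below the median of the PFF mice breathing 21% O2. *Dnajc27*, a small GTPase with a J domain, was at 0.09 ± 0.04 (SE) with an edgeR adjusted p of 0.496.

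The interaction of injection and O2 asks whether the PFF response differed between 11% and 21% O2. *Dnaja4* was called, at 0.33 ± 0.08 (SE) on the log2 scale with an edgeR adjusted p of 0.0119, as 1 of 39 members (2.56%) against 2.14% of all genes. *Dnajb4*, at 0.25 ± 0.07 (SE), and *Dnaja1*, at 0.22 ± 0.06 (SE), had edgeR adjusted p-values of 0.0397 and 0.0472 but did not exceed the fold threshold. By the adjusted p alone, 3 of 39 members and 2.32% of all genes passed. In batch 1 alone, the only batch with all 4 groups, the interaction was 0.29 ± 0.13 (SE) for *Dnaja4*, 0.21 ± 0.09 (SE) for *Dnajb4* and 0.14 ± 0.08 (SE) for *Dnaja1*, and no member was called, against 0.0745% of all genes.

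**Figure D4:**
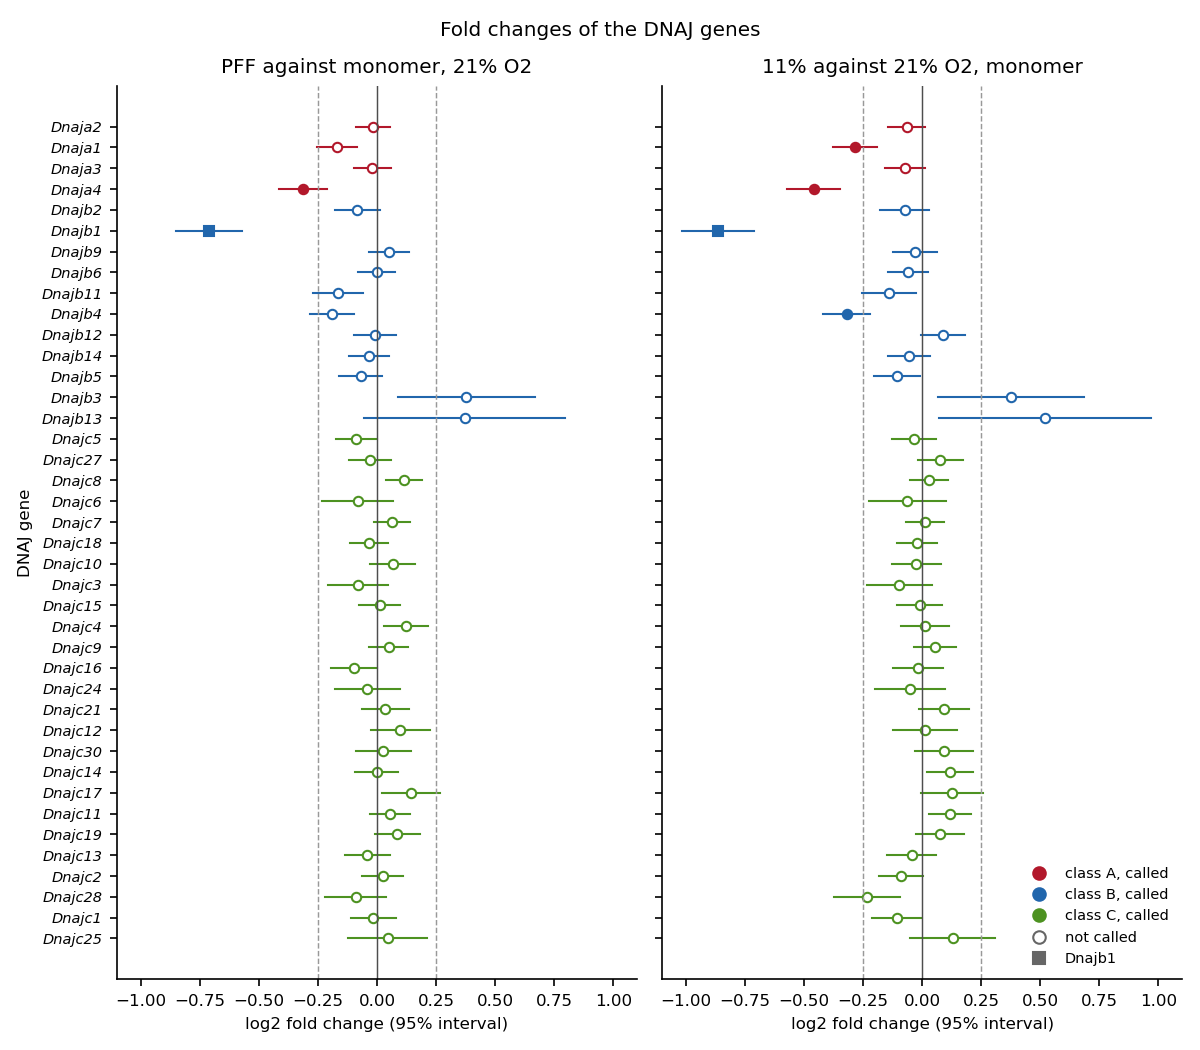
Log2 fold changes of the 39 members tested and of *Dnajb1*, with 95% intervals, for PFF against monomer at 21% O2 and for 11% against 21% O2 in monomer mice. Filled symbols are genes called, and dashed lines mark the fold threshold of 0.25. No class C gene is called in either panel, where 3.7% and 7.23% of all genes are called.

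By class, the 4 class A members were all below 0 in both comparisons with the reference group. The class A median log2 fold change was -0.09 for PFF at 21% O2, -0.18 for 11% O2 in monomer mice, 0.01 for PFF at 11% O2 and -0.06 for 11% O2 in PFF mice. Outside *Dnaja1* and *Dnaja4*, the values were small. *Dnaja2* was at -0.02, with a 95% interval from -0.09 to 0.06, for PFF at 21% O2 and at -0.06, from -0.14 to 0.01, for 11% O2 in monomer mice. *Dnaja3*, the mitochondrial class A member also called Tid1, was at -0.02, from -0.10 to 0.06, and at -0.07, from -0.16 to 0.01. Class B medians were -0.02, -0.06, 0.01 and -0.02 over the same 4 comparisons, and class C medians were 0.02, 0.01, -0.01 and -0.03. The median of all genes tested lay between -0.01 and 0.00 in each.

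No class C member of 25 tested was called over all batches in any of the 5 comparisons, in which 0% to 7.23% of all genes were called. *Dnajb4* was the only one of 10 class B members tested that was called over all batches. This was for 11% O2 in monomer mice, where the share of all genes was 7.23%. Counts of so few members cannot set classes B and C apart from all genes. Summed over its members, class A reached 583 TPM ± 29.8 (SD, n = 11) in monomer and 542 TPM ± 22.7 (SD, n = 12) in PFF mice breathing 21% O2, and 518 TPM ± 23.5 (SD, n = 9) in monomer and 522 TPM ± 16.6 (SD, n = 10) in PFF mice breathing 11% O2. The class C sums were 1851 TPM ± 38.7, 1833 TPM ± 36.8, 1849 TPM ± 38.9 and 1824 TPM ± 45.2 (SD) in the same order.

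The ER members guide folding, translocation and disposal, several of them with BiP. At most 7.23% of all genes were called in a comparison over all batches, and none of the 10 was. The 4 of them that belong to the unfolded protein response had median log2 fold changes of -0.01 for PFF at 21% O2 and -0.06 for 11% O2 in monomer mice. *Dnajb9*, an ER member that represses the stress sensor IRE1, was at 0.05, with a 95% interval from -0.03 to 0.14, and at -0.03, from -0.12 to 0.06. *Dnajc10*, a disulfide reductase of ER-associated degradation, was at 0.07, from -0.03 to 0.16, and at -0.02, from -0.13 to 0.08. *Dnajc3*, also called p58IPK, was at -0.08, from -0.21 to 0.05, and at -0.10, from -0.23 to 0.04. For PFF at 21% O2 its value over all batches joins opposite signs, above 0 in batch 1 and below 0 in batch 2. *Dnajc3* and *Dnajb11* were called lower in batch 2 alone, as were 1.81% of all genes. *Dnajb11* was at -0.14 ± 0.06 (SE) for 11% O2 in monomer mice, with an edgeR adjusted p of 0.0893, and at -0.03 ± 0.07 (SE) in batch 1 alone. An ER stress element, with the letters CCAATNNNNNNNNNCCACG on either strand, was found in the RefSeq window of *Dnajc3* alone among the DNAJ genes, and in 0.137% of all genes.

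The 7 mitochondrial members, some of which work with mortalin in import and folding, had median log2 fold changes of 0.03 for PFF at 21% O2 and 0.01 for 11% O2 in monomer mice. None of the 7 was called, beside 3.7% and 7.23% of all genes. *Dnajc19* and *Dnajc15*, both of the inner membrane import motor, were at 0.09, with a 95% interval from -0.01 to 0.18, and at 0.01, from -0.08 to 0.10, for PFF at 21% O2. For 11% O2 in monomer mice they were at 0.08, from -0.03 to 0.18, and at -0.01, from -0.10 to 0.08. *Dnajc30*, which acts in complex I repair, was at 0.03, from -0.09 to 0.14, and at 0.09, from -0.03 to 0.22. Exons of *Dnajc30* and *Dnajc19* overlap *Bud23* and *Fxr1* on the opposite strand. For 11% O2 in monomer mice *Fxr1* was called, at -0.26 ± 0.05 (SE), and *Bud23* was not, at -0.16 ± 0.05 (SE). What the overlap adds to the values of *Dnajc19* and *Dnajc30* was not tested.

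The members of the synapse and of inherited parkinsonism were not called in any comparison, where at most 7.23% of all genes were called. *Dnajc6* encodes neuronal auxilin, which uncoats clathrin vesicles, and had means between 183.6 and 197 TPM in the 4 groups with SDs from 21.7 to 28.3 TPM. Its log2 fold change for PFF at 21% O2 was -0.08, with a 95% interval from -0.23 to 0.07. *Dnajc13*, the endosomal protein RME-8, had means between 22.4 and 23.9 TPM and a log2 fold change of -0.04, from -0.14 to 0.05. *Dnajc12*, a cochaperone of the aromatic amino acid hydroxylases that include tyrosine hydroxylase, had means between 36.0 and 38.1 TPM and a log2 fold change of 0.10, from -0.03 to 0.22. *Dnajc5* was at -0.09, from -0.18 to 0.00. For 11% O2 in monomer mice, these 4 were between -0.06 and 0.01. The intervals leave out changes beyond 0.25 for all 4 in both comparisons, and a p that misses the threshold does not show that the groups were alike.

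Among the remaining class B members, *Dnajb6*, an inhibitor of polyglutamine and other amyloid aggregation, was at 0.00, with a 95% interval from -0.08 to 0.08, for PFF at 21% O2 and at -0.06, from -0.14 to 0.02, for 11% O2 in monomer mice. *Dnajb2* was at -0.08, from -0.18 to 0.01, and at -0.07, from -0.18 to 0.03. *Dnajb13* was at 0.37, from -0.06 to 0.80, and at 0.52, from 0.07 to 0.97, intervals too wide, at a median of 14 counts a mouse, to tell a large difference from a small one. Its exons overlap those of *Ucp2*, and of the 6 ciliated ependymal markers 3 had means under 1 TPM and 2 could be tested, with none called.

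Several HSP70 genes, the partners of DNAJ proteins, were called in the same comparisons. Of 15 HSP70 genes, 5 fell and 1 rose for PFF at 21% O2, and 5 fell and 1 rose for 11% O2 in monomer mice. Of all genes, 3.7% and 7.23% were called in these 2 comparisons, and 1.41% and 2.55% were called lower. *Hspa1a* and *Hspa1b*, the near-identical inducible HSP70 genes whose reads are hard to separate, were at -1.60 ± 0.22 (SE) and -2.39 ± 0.35 (SE) for PFF at 21% O2. They were at -2.09 ± 0.25 (SE) and -3.14 ± 0.41 (SE) for 11% O2 in monomer mice. *Hsph1*, the HSP110 exchange factor, was at -0.48 ± 0.07 (SE) and -0.66 ± 0.07 (SE). *Hspa5*, which encodes BiP, was at -0.46 ± 0.08 (SE) and -0.55 ± 0.09 (SE), and its ER relative *Hyou1* was at -0.28 in each. *Hspa12b*, a distant endothelial member, rose by 0.32 ± 0.10 (SE) and by 0.68 ± 0.11 (SE). None of the 15 was called for PFF at 11% O2 or for 11% O2 in PFF mice, and 4 were called for the interaction (*Hspa1a*, *Hspa1b*, *Hspa5* and *Hsph1*).

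*Hspa8*, the constitutive HSC70 that most cytosolic DNAJ proteins serve, was at -0.14 and -0.21, short of the fold threshold. For PFF at 21% O2, where 1.41% of all genes were called lower, 1 of 12 exchange factors and regulators of HSP70 fell. It was *Bag3*, which links HSP70 to autophagy, and it fell by 0.28 ± 0.09 (SE) on the log2 scale. None of the 12 was called for 11% O2 in monomer mice or for PFF at 11% O2. *Bag1* was called for 11% O2 in PFF mice, at 0.28 ± 0.07 (SE), and for the interaction, at 0.48 ± 0.10 (SE).

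Cell type markers also moved in these comparisons. Of all genes, 7.23% were called for 11% O2 in monomer mice, 3.7% for PFF at 21% O2 and 0% for PFF at 11% O2. The shares were 0.58% for 11% O2 in PFF mice and 2.14% for the interaction. For 11% O2 in monomer mice, 4 of 5 endothelial, 4 of 4 pericyte and 2 of 6 oligodendrocyte markers rose, and no marker of neurons, dopaminergic neurons, astrocytes, oligodendrocyte precursors, microglia, ciliated ependyma or choroid plexus was called. For PFF at 21% O2, 1 of 5 endothelial markers rose and 1 of 3 precursor markers fell, and none of the other 8 lists had a call. No marker was called for PFF at 11% O2. For 11% O2 in PFF mice 1 endothelial and 2 pericyte markers rose, and for the interaction 1 oligodendrocyte and 1 pericyte marker were called, both below 0. The summed endothelial level ran from 116 to 166.9 TPM in monomer and from 105 to 199 TPM in PFF mice breathing 21% O2, and from 168 to 309 TPM in monomer mice breathing 11% O2, while PFF mice breathing 11% O2 had a median of 189.4 TPM and a maximum of 232 TPM. The summed pericyte level ran from 77.6 to 110 TPM, 76.6 to 129 TPM, 116 to 260 TPM and 108 to 170 TPM in the same order. Their part in the falls of *Dnaja4*, *Dnaja1* and *Dnajb4* was not tested. *Wdr61* and *Smu1*, whose exons overlap those of *Dnaja4* and *Dnaja1* on the opposite strand, were at -0.04 ± 0.04 (SE) and 0.05 ± 0.04 (SE) on the log2 scale for 11% O2 in monomer mice.

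Members were then compared with *Dnajb1* from mouse to mouse, on log2 CPM (counts scaled to library size) with group means removed. Of 39 members, 8 had an unadjusted permutation p under 0.05 (20.5%), against 8.48% of all genes, and none passed after adjustment over 14838 genes, of which 18 passed. On uncorrected counts with group and batch means removed, the shares were 20.5% of members and 13.1% of all genes. The members were not all the same there, as *Dnajb4* and *Dnajc17* had permutation p-values of 0.0734 and 0.0658. No member passed after adjustment there either. The values that follow are on corrected counts unless stated. The highest Pearson correlation was that of *Dnajb11*, at r = 0.54 and Spearman rho = 0.54 over 42 mice, with a permutation p of 0.00062 (100000 two-sided permutations within group and batch) and an adjusted p of 0.124. The permutation p of its rho was 0.00052. The r was 0.64, 0.43 and 0.48 within batches 1, 2 and 3 and 0.54 without the 2 mice farthest from the median of *Dnajb1*. *Dnaja1* was at r = 0.51 (rho = 0.45), *Dnajb4* at r = 0.45 (rho = 0.37) and *Dnaja4* at r = 0.39 (rho = 0.38), with permutation p-values of 0.0158, 0.0223 and 0.0282 for r and of 0.0263, 0.0414 and 0.0233 for rho, and adjusted p-values of 0.425, 0.468 and 0.503 for r. In batches 1, 2 and 3 the r of *Dnaja1* was 0.74, 0.37 and 0.14, that of *Dnajb4* 0.76, 0.26 and -0.09 and that of *Dnaja4* 0.48, 0.41 and 0.21. Without the 2 farthest mice these were 0.52, 0.45 and 0.30. *Dnajc28* was at r = 0.48 (rho = 0.52, permutation p of 0.0159 and 0.00579) and *Dnajb2* at r = 0.34 (rho = 0.37, permutation p of 0.0112 and 0.0139), while *Dnajc19* and *Dnajc17* were both at r = -0.31. The lowest r was that of *Dnajb9*, an ER member like *Dnajb11*, at -0.34 (rho = -0.21, permutation p of 0.0638 and 0.238). On uncorrected counts the r of *Dnajb9* was -0.45, with a permutation p of 0.0129. The values within single groups were spread widely. In monomer mice breathing 21% O2 the r of *Dnaja1*, *Dnajb4* and *Dnaja4* was 0.82, 0.77 and 0.80, and in PFF mice breathing 21% O2 it was 0.40, 0.25 and 0.22. In monomer mice breathing 11% O2 it was 0.18, 0.39 and -0.24, and in PFF mice breathing 11% O2 all 3 lay between 0.00 and 0.05. For *Dnajb11* the r was 0.49, 0.84, 0.71 and 0.00 in the same order of groups. Whether these values differ between groups was not tested. *Dnajb5* was at r = 0.25 (rho = 0.27), with permutation p-values of 0.144 and 0.0912.

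The summed level of dopaminergic markers varied between mice of a group, and the members were compared with it after the values were seen. Against that summed TPM of the 7 dopaminergic markers, with group means removed, 9 of 39 members (23.1%) passed after adjustment over all genes, 7 with a positive and 2 with a negative correlation, beside 25.6% of all 14832 genes, so that members passed no more often than other genes and the values below describe single members. *Dnajc6* was highest, at r = 0.79 and rho = 0.86 over 42 mice, with a permutation p of 1e-05, the smallest these permutations can give, and an adjusted p of 0.000276. Its r was 0.88, 0.78 and 0.90 within batches 1, 2 and 3 and 0.79 without the 2 farthest mice. *Dnajc13* was at r = 0.53 (rho = 0.61), *Dnajc12* at r = 0.53 (rho = 0.59) and *Dnajc5* at r = 0.49 (rho = 0.60), with permutation p-values of 0.00038, 0.00039 and 6e-05 and adjusted p-values of 0.00364, 0.00371 and 0.000958. Spearman permutation p-values were 1e-05 for *Dnajc6*, 0.00017 for *Dnajc13*, 0.00011 for *Dnajc12* and 5e-05 for *Dnajc5*. Within batches, r ran from 0.20 in batch 2 to 0.83 in batch 3 for *Dnajc13*, from 0.55 to 0.63 for *Dnajc12* and from 0.59 to 0.75 for *Dnajc5*. Without the 2 farthest mice these 3 had r of 0.50, 0.47 and 0.49.

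The other positive members were *Dnaja1*, *Dnajb6* and *Dnajb4*, each at r = 0.32, with rho of 0.37, 0.42 and 0.37, permutation p-values of 0.0041, 0.00281 and 0.00761 for r and of 0.0114, 0.0026 and 0.0107 for rho. Their r was 0.28, 0.29 and 0.26 without the 2 farthest mice, and -0.05, 0.14 and 0.15 in batch 2. *Dnajc21*, a nuclear and cytosolic member of ribosome assembly, at r = -0.46 (rho = -0.49, permutation p of 0.00158 and 0.00263), and *Dnajc8*, a splicing factor, at r = -0.34 (rho = -0.38, permutation p of 0.0079 and 0.00876), were negative. They were at -0.41 and -0.34 without the 2 farthest mice, and below 0 within every batch. Against the summed oligodendrocyte markers 3 members (7.69%) passed, beside 11.1% of all genes. *Dnajb2* was at r = 0.67 (rho = 0.63, permutation p of 6e-05 and 0.00041), with r of 0.63, 0.25 and 0.84 within batches and 0.60 without the 2 farthest mice. *Dnajc2*, a ribosome-bound member, was at r = -0.59 (rho = -0.48, permutation p of 0.0005 and 0.00575), and *Dnajc12* at r = -0.49 (rho = -0.46, permutation p of 0.00368 and 0.0049). Without the 2 farthest mice these were -0.53 and -0.46. The points share their library and its depth on both axes.

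**Figure D5:**
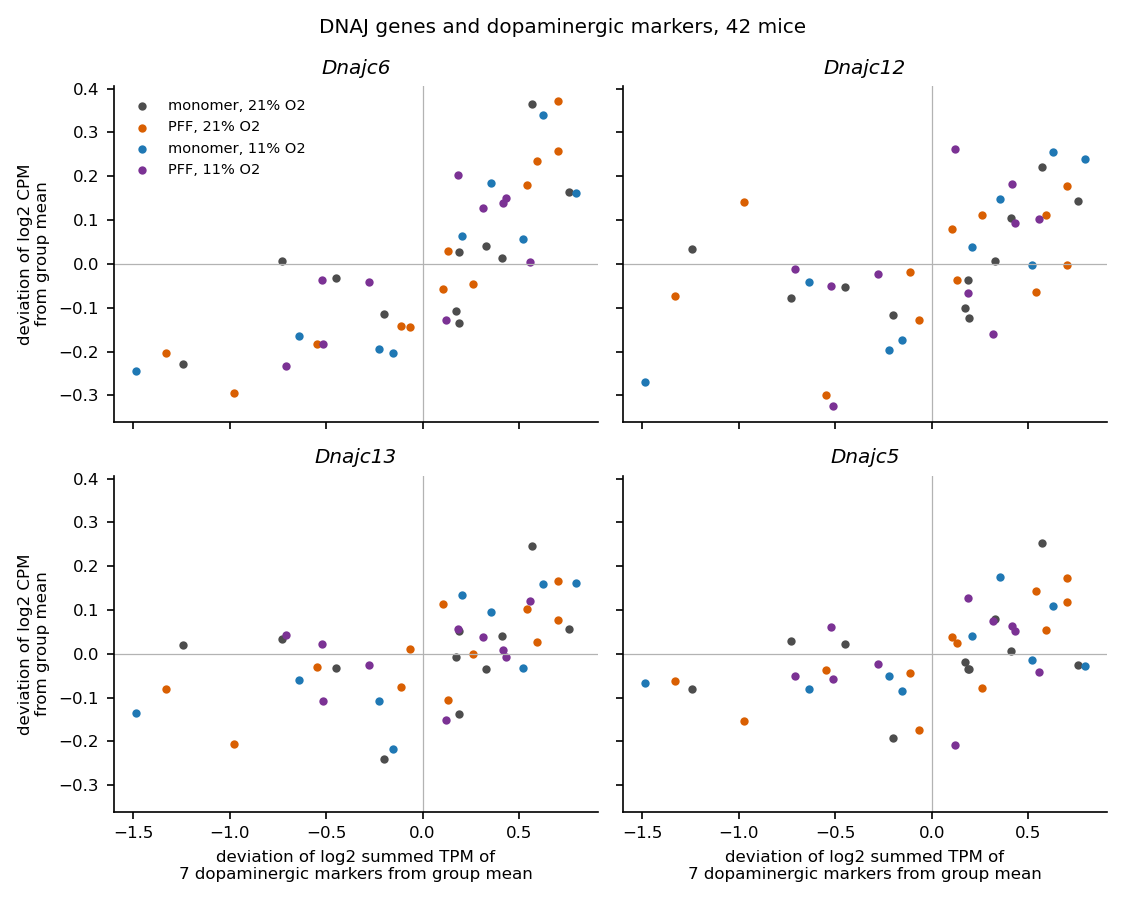
Deviation of log2 CPM of *Dnajc6*, *Dnajc12*, *Dnajc13* and *Dnajc5* from the group mean, against the deviation of the log2 summed TPM of 7 dopaminergic markers, in 42 mice coloured by group. The points of *Dnajc6* rise most closely with the markers (r = 0.79). Group means were removed on both axes, so the mixing of the 4 groups follows from the processing.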

How the data were processed

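Libraries were made from poly(A)-selected RNA of the dissected SN. The authors aligned reads with STAR 2.7.5a to mm10 with GENCODE vM24, removed duplicates with Picard 2.21.9 and counted with featureCounts 2.0.1. They left out 6 of 48 mice after principal component analysis and corrected the counts for harvest batch with ComBat-seq. The deposited tables hold these counts and TPM values, before and after correction. Totals of corrected counts ranged from 12360798 to 16566973 per mouse.

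Corrected counts of 42 mice were fitted in 1 model of 4 groups with TMM scaling and edgeR 4.0.16 (R 4.3.3) after its filter on low counts, which kept 14839 genes. Genes were called at an adjusted p under 0.05 and a log2 fold change beyond 0.25. DESeq2 1.42.0 and limma 3.58.1 on log2(TPM + 1) were alternatives. ComBat-seq was run with O2 and injection as covariates, and such a correction can leave p-values too small, so values within batches are printed too. Scripts were tested on simulated data. Since the labels give each mouse its own sample, replicates are mice.

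Correlations used log2 CPM with group means removed and 100000 permutations of mice within group and batch. Their p-values were adjusted over all genes rather than over the members as first planned. Positions and exon overlaps came from GENCODE vM21 on GRCm38. The members and lists were chosen with earlier results of these data known. Full values are given for members called in any comparison, the 3 with the smallest p in each, the highest and lowest of each class, and 20 members listed by role.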

Additional observations from a re-analysis of the deposited data

Results flagged for a closer look

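The interaction of injection and O2, which tests whether the PFF response differed between O2 levels, had an edgeR adjusted p under 0.05 for 3 members. It was 0.3273 on the log2 scale for *Dnaja4* (adjusted p 0.0119), 0.248 for *Dnajb4* (adjusted p 0.0397) and 0.2214 for *Dnaja1* (adjusted p 0.0472). All 3 contrasts use the same monomer mice breathing 21% O2.

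In 8 of the 86 gene and group pairs looked at, in groups of 9 or 10 mice, 1 mouse stood apart by Dixon's criterion, which chance gives in about 1 of 20. The gap to the nearest mouse is given as a share of the group's range. Among monomer mice breathing 11% O2 the share was 0.62 for *Dnaja4*, whose lowest mouse, in batch 3, had 25.5 TPM against 29.6 TPM for the next. It was 0.545 for *Dnajb11* (highest mouse 74.6 TPM, next 62.9 TPM), 0.615 for *Dnajc24* (highest 45.1 TPM, next 39.6 TPM) and 0.533 for *Dnajc4* (lowest 52.9 TPM, next 62.6 TPM). For *Dnajc5b*, at very low counts, it was 0.69 (highest 0.616 TPM, next 0.191 TPM). Among PFF mice breathing 11% O2 it was 0.514 for *Dnaja3* (lowest 49.6 TPM, next 57.4 TPM), 0.474 for *Dnajc11* (lowest 26.6 TPM, next 29.8 TPM) and 0.696 for *Dnajc2* (highest 27.6 TPM, next 23.2 TPM).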

How the results depend on the processing

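For PFF against monomer at 21% O2, the count of members called was 1, and became 4 by the adjusted p alone, 0 in batch 1 alone and 6 in batch 2 alone. For the interaction it was 1, and became 3 by the adjusted p alone, 3 with batch as a model term on uncorrected counts of 48 mice, 2 with limma on log2(TPM + 0.1) and 0 in batch 1 alone. Batch 1 alone holds fewer mice, and the cause of these changes was not tested. The count for 11% O2 in monomer mice was 3 or 4 under every alternative run, and the counts for PFF at 11% O2 and for 11% O2 in PFF mice were 0. Of 1450 values of single named genes under the alternatives, 1441 kept their side of the threshold, 7 passed it newly and 2 (*Dnaja4* in batch 1 alone) no longer passed it. The sign changed in 103 of the 1441, all of them values called in neither fit. The study matched animals across groups, but the labels do not tie replicate numbers to that matching. Same-numbered mice had mean correlations from -0.16 to 0.22 over pairs of groups. Of those pairs of groups, monomer at 21% O2 with PFF at 11% O2 had all 9 above 0 and 7 of 9 over 0.1, while monomer at 21% with monomer at 11% O2 had 0 of 8 over 0.1, so the numbers were not taken as pairs. With the replicate block the counts were 1 for PFF at 21% O2, 4 for 11% O2 in monomer mice, 0 for PFF at 11% O2, 0 for 11% O2 in PFF mice and 1 for the interaction. The members passing against the dopaminergic markers numbered 11 on uncorrected counts (28.2%, beside 31.2% of all genes), and 2 against the oligodendrocyte markers (5.13%, beside 11.5%). Monomer mice at the 2 O2 levels meet in batch 1 alone, and depth limits *Dnajb13* and the 4 untested members.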

Other observations

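The 6 mice that the authors left out have values before batch correction only. *Dnaja4* was at 17.0 and 30.9 TPM in the 2 PFF mice breathing 11% O2, at 35.8 TPM in the monomer mouse breathing 21% O2 and at 25.7, 28.6 and 28.3 TPM in the 3 monomer mice breathing 11% O2. In the uncorrected table, the pseudogenes *Dnaja1-ps* and *Dnajc19-ps* had 7 and 91 counts in total over 48 mice, and *Dnajc5g* had 0.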
